A study of Mus musculus with 36 samples.

Results

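The 32 genes described here encode enzymes of cholesterol and fatty acid synthesis and the proteins that sense and carry sterols. They were chosen by name from the pathway and form 32 of the 56748 genes in the deposited table. By role, 7 act in the mevalonate arm (Acat2, Hmgcs1, Mvk, Pmvk, Mvd, Idi1 and Fdps) and 11 between squalene and cholesterol (Fdft1, Sqle, Lss, Cyp51, Tm7sf2, Msmo1, Nsdhl, Hsd17b7, Ebp, Sc5d and Dhcr7). Another 6 sense or carry sterols (Srebf1, Srebf2, Scap, Insig1, Insig2 and Stard4) and 8 make or modify fatty acids (Acly, Acaca, Fasn, Scd1, Scd2, Elovl6, Fads1 and Fads2).

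RNA was sequenced from mouse CD4 T cells of 2 lines of knockout (KO) mice and their wild-type (WT) controls. The HP1a line carried a germline inactivation of Cbx5, the gene of heterochromatin protein 1 alpha, and its WT mice were littermates with both alleles intact. In the HP1g line floxed alleles of Cbx3, the gene of heterochromatin protein 1 gamma, were removed by a Cd4-driven Cre, which acts in T lineage cells, and the WT controls were littermates with the floxed alleles and no Cre. Both lines were of mixed 129/Sv and C57BL/6 background, and the mice were sex-matched young adults. Each line and genotype was sampled in 3 conditions. Naive cells came straight from the spleen by negative selection. Tconv cells were donor-specific Vβ6+ CD4 T cells sorted from the spleen 3 weeks after naive cells had been given to irradiated C57BL/6 hosts with semi-allogeneic bone marrow. Tconv with Treg were the same cells from hosts that also received expanded WT regulatory T cells (Treg), which carried Thy1.1 and which the sort gated out. All 12 groups had 3 libraries except HP1g KO Tconv with Treg, which kept 2 after the study set aside replicate 3 for its quality. The labels do not say how many mice stood behind a library, so p-values measure the spread between these libraries.

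Cells make cholesterol from acetyl-CoA through mevalonate and squalene, and the isoprenoid units formed on the way also feed protein prenylation. The pathway is governed by sterol levels: SCAP carries the SREBP transcription factors (genes Srebf1 and Srebf2) to the Golgi for cleavage when membrane cholesterol is low, and INSIG proteins hold them back in the endoplasmic reticulum when it is high. T cells are known to raise lipid synthesis when they begin to divide.

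SREBP proteins bind sterol regulatory elements in promoters, often next to a CCAAT box bound by NF-Y, and the promoter sequences below are printed to show where such letters lie in genes whose levels are described. The RefSeq promoter table of the GRCm38.p6 assembly held a promoter for 25 of the 32 members. It held none for Scd1, Scd2, Sqle, Fdps, Fads1, Stard4 and Fdft1, which were not searched. Windows of 250 bases before to 50 bases after the start were searched on both strands. The letters sought were TCACNCCAC, a form of the sterol element in classic targets, CCAAT and the GC box GGGCGG. Other forms of the sterol element were not searched and are not marked. Stretches outside the exons of protein-coding genes are given in GRCm39 coordinates, after each window was matched to that genome at a single place. Capitals mark TCACNCCAC and CCAAT, the latter also as its reverse ATTGG. Matches outside a printed stretch, or cut by its end, are not shown. Cyp51 thus has a CCAAT at -29 from the start that is not printed. Mvk has unmarked ones at -173, -67, -50 and -14, and Hmgcs1 has one at 10. Hmgcs1 was printed as the only searched member with a TCACNCCAC match, and Cyp51, Ebp and Mvk were picked after their values had been seen.
Hmgcs1, chr13:120151637-120151886, plus strand: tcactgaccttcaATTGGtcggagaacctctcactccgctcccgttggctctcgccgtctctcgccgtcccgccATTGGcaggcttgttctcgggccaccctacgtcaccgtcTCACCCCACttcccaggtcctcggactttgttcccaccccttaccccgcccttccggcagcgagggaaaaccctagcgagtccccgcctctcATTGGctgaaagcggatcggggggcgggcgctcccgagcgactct
Cyp51, chr5:4154752-4154947, minus strand: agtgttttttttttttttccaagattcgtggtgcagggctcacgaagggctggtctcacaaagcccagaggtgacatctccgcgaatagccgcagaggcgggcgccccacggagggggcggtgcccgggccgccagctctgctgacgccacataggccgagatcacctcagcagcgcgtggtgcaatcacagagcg
Ebp, chrX:8059796-8059934, minus strand: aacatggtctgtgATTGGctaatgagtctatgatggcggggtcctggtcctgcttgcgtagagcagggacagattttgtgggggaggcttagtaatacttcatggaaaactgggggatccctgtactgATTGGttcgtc
Mvk, chr5:114582174-114582266, plus strand: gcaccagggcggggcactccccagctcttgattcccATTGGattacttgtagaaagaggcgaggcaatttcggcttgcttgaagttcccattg

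The 25 members had 33 promoters, of which 1 (Hmgcs1; 3.03%) held TCACNCCAC, against 1.24% of all 32851 promoters in the table. The Hmgcs1 stretch held TCACNCCAC together with 3 CCAAT boxes, and 0.441% of all promoters held both. CCAAT lay in 21 of the 33 promoters of these members (63.6%), against 37.4% of all promoters, and GGGCGG in 25 of 33 (75.8%), against 35.7%. These matches describe letters in a window and were not compared with any binding data.

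Library depth ran from 37029477 to 63042165 estimated counts, so that 3 counts equalled 0.0476 to 0.081 CPM, the count scaled to a fixed library size. Levels below are CPM after scaling by the trimmed mean of M values (TMM). The targeted genes had lower means in KO than in WT libraries in all 3 conditions. Cbx5 was 10.9 ± 1.55 CPM in HP1a KO naive cells against 22.3 ± 3.42 in WT, and the KO and WT ranges did not overlap in any of the 3 conditions. Cbx3 was 71.4 ± 8.4 CPM in HP1g KO naive cells against 141 ± 50.9 in WT (SD, n = 3 each), and its KO and WT ranges did not overlap in any of the 3 conditions either. Of these 6 differences, that of Cbx5 in HP1a Tconv cells passed, at -0.89 on the log2 scale (adjusted p = 0.0331, edgeR). These are RNA levels. For protein, the paper reports that the HP1a KO naive cells lacked theirs and that the HP1g KO naive cells had lost almost all of theirs. Genes that mark T cells summed to 6240 to 11000 CPM in all 35 libraries. Sums of erythroid markers reached 4930 CPM and of myeloid markers 693 CPM in single libraries of grafted mice. WT naive replicate 2 of the HP1g line stood apart from its group, with the highest T cell sum of all libraries and with the highest Fdps and Msmo1 levels of its group. Others did too. Replicate 3 of HP1a WT Tconv with Treg had the lowest median correlation with its group of the 35 libraries, 0.982 on log2(CPM + 1). A chi-square per gene, larger where replicates differ more, was 296 and 325 in its pairs and 48.7 in the other. For HP1a naive replicate 1 it was 147 and 159 in WT and 118 and 121 in KO pairs, against 13.9 and 8.37 in the others. HP1g KO Tconv replicate 1 had 161 and 141 against 22.2. The labels name no batch, but naive and grafted libraries stand apart in the sample order, so condition and any library set cannot be told apart. Naive cells also came by negative selection and grafted cells by a Vβ6+ sort, which goes with condition too.

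Per kilobase of merged exon, Srebf2, which encodes SREBP2, the factor that drives cholesterol synthesis genes, had the highest median level over the 12 groups, 25.1 CPM per kilobase, and its group means ran from 15.2 to 37. Acly, which splits citrate into the acetyl-CoA used for lipid synthesis, followed with 21.8 (17.8 to 27.9), and Ebp, the sterol isomerase, with 17.2 (10.7 to 24.5). The ranges of these 3 genes overlapped, so their order is not fixed by the group means. Among enzymes of the mevalonate arm Fdps, Hmgcs1 and Idi1 had medians of 13.7, 12.6 and 11.8 CPM per kilobase, whereas mevalonate kinase (Mvk) had 0.699. The merged length counts all annotated exons, 11148 bases for Mvk and 4890 for Fdps, and can exceed the transcript in use, so the order of genes depends on it. In CPM the median library held 7.93 for Mvk and 66.1 for Fdps. Fatty acid genes spanned the whole scale: Fasn, the fatty acid synthase, had a median of 6.92, Acaca, which makes malonyl-CoA, of 0.568, and the desaturase genes Fads2 and Scd1 of 0.0453 and 0.033. The other stearoyl-CoA desaturase of the list, Scd2, had 9.02, far above Scd1.

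**Figure D1:**
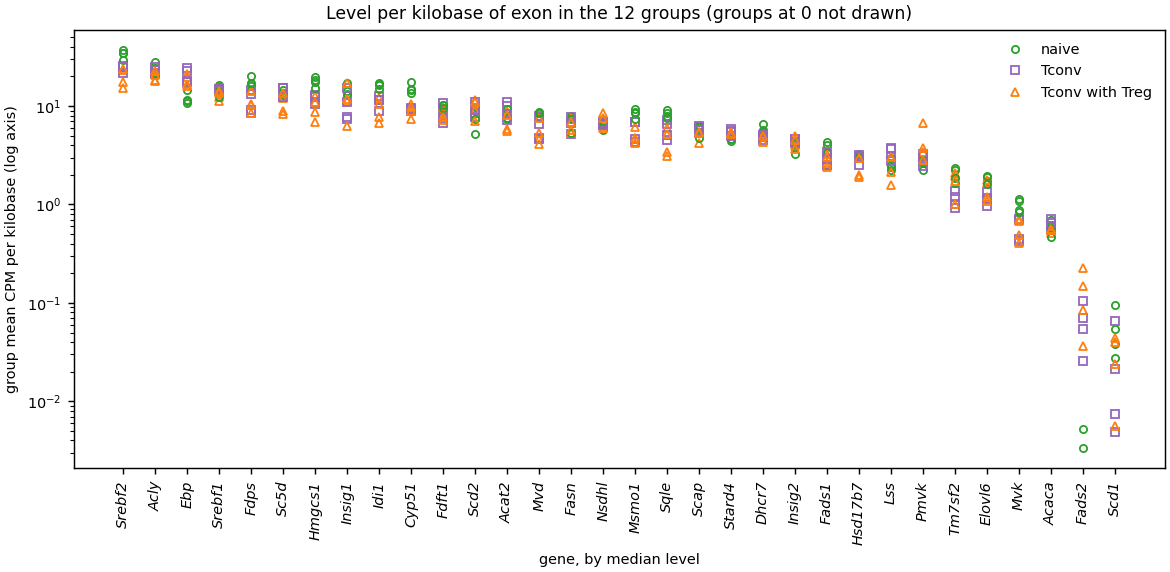
Mean level of each of the 32 genes in each of the 12 groups, in CPM per kilobase of merged exon on a log axis; each point is the mean of a group. Srebf2 and Acly lie at the top with group means from 15.2 to 37 and from 17.8 to 27.9, and Fads2 and Scd1 lie at the bottom.

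The comparison of Tconv with naive cells asks how the genes differ between cells after the graft and resting cells, and it was made in each line and genotype with edgeR's quasi-likelihood test, with p-values adjusted by Benjamini-Hochberg over all genes tested. A gene passed where its adjusted p was under 0.05 and was called where, in addition, its log2 fold change exceeded 1 in size. More members fell than rose in each when all libraries were used. In HP1a WT cells 10 of 32 members fell, 31.2% against 21.4% of all genes tested, and 5 rose, 15.6% against 24.3%. In HP1a KO cells 10 of 31 fell (32.3%, against 17.8% of all genes) and 3 rose (9.68%, against 22.9%). In HP1g WT cells 8 of 30 fell (26.7%, against 13.2%) and 1 rose (3.33%, against 18.3%). In HP1g KO cells 11 of 32 fell (34.4%, against 17.7%) and 2 rose (6.25%, against 23.4%). The median log2 fold change of the tested members was -0.17, -0.16, -0.20 and -0.29 in these 4 comparisons, and that of all genes was -0.04, -0.01, -0.03 and 0.02. In HP1a WT cells the number that fell dropped to 4, 3, 6 and 4 without Tconv replicate 1, Tconv replicate 3, naive replicate 2 and naive replicate 3, and to 4 with all HP1a libraries in 1 fit, where HP1a KO cells had 6. In those HP1a WT fits without Tconv replicate 3 and without naive replicate 3, 4 members rose, so that fallers no longer outnumbered risers. For HP1g WT it dropped to 4 and 5 without Tconv replicate 2 and 3, the number that rose was 0 without any one Tconv library and 4 without naive replicate 2, and 6 rose in HP1g KO cells without Tconv replicate 1.

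Cyp51, Mvk and Tm7sf2 fell in all 4 comparisons. They were 3 of the 30 members tested in all 4, or 10%, and 7.15% of all genes tested in all 4 fell in each. None of the 30 members rose in all 4, whereas 12% of all genes did. Over the 4 comparisons 20 members passed at least once and 12 never did, namely Pmvk, Fdft1, Nsdhl, Hsd17b7, Sc5d, Dhcr7, Srebf1, Scap, Insig2, Acaca, Acly and Scd2. No member rose in one comparison and fell in another. Tm7sf2 kept its pass in each fit that left out a library of HP1a WT, HP1a KO or HP1g KO cells. It lost the pass in HP1g WT cells without Tconv replicate 2 or naive replicate 1, and with the replicate block. Mvk and Cyp51 each lost it in some of the HP1a fits, and Cyp51 in all but 1 of the HP1g WT fits.

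**Figure D2:**
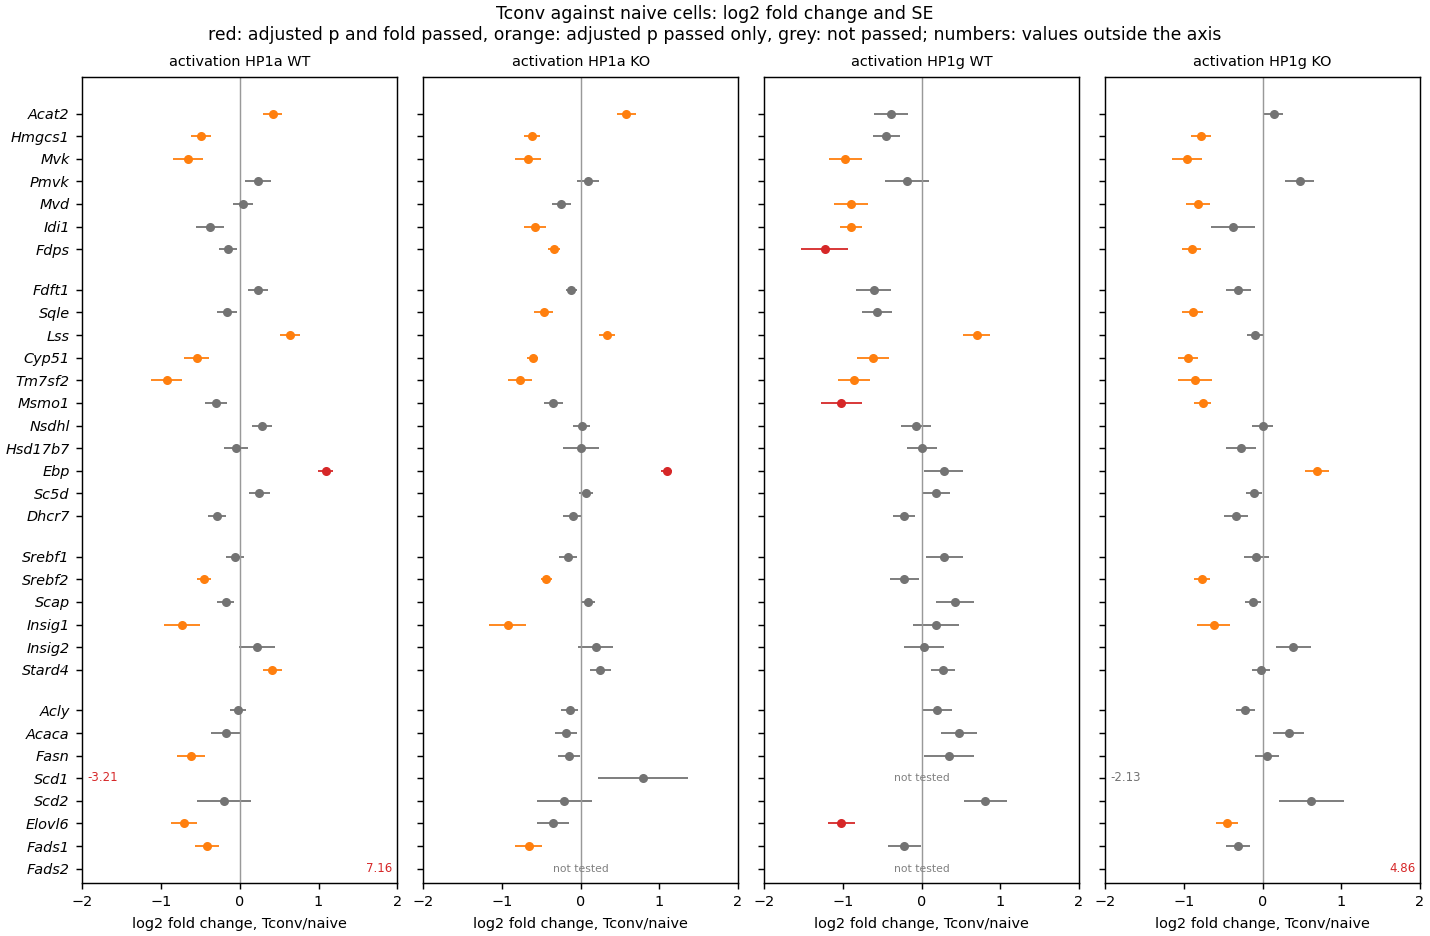
Log2 fold change of Tconv against naive cells for each of the 32 genes in the 4 line and genotype comparisons; bars are standard errors, red points were called, orange points passed the adjusted p alone and grey points did not pass. Cyp51, Mvk and Tm7sf2 lie below 0 and passed in all 4, and Ebp lies at 1.09 in both HP1a comparisons.

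In the mevalonate arm, Mvk phosphorylates mevalonate. Its level was 13.8, 11.1 and 11.7 CPM in the 3 HP1a WT naive libraries and 7.94, 8.68 and 6.55 in the Tconv libraries. In the HP1g line it was 9.07, 9.87 and 10.5 in WT naive libraries and 5.48, 5.44 and 4.12 in WT Tconv libraries. All Tconv libraries lay below all naive libraries in both. In the KO groups Mvk went from 12, 13.3 and 12.7 to 9.1, 6.68 and 7.93 CPM in the HP1a line, and from 9.41, 9.46 and 9.43 to 5.69, 4.61 and 4.03 in the HP1g line. The log2 fold changes were -0.66 (adjusted p = 0.0205), -0.67 (0.0156), -0.97 (0.00991) and -0.96 (0.00427) in HP1a WT, HP1a KO, HP1g WT and HP1g KO cells in edgeR's quasi-likelihood test.

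Hmgcs1, which makes the HMG-CoA that is reduced to mevalonate, was 75.5, 95.7 and 108 CPM in HP1a WT naive libraries and 63.4, 72.2 and 62.1 in HP1a WT Tconv libraries. HP1g KO naive libraries held 99.9, 102 and 86.8 CPM and HP1g KO Tconv libraries 47.9, 63.3 and 54. The groups did not overlap in either, with a wider gap in the HP1g KO cells. Hmgcs1 fell by 0.49, 0.62 and 0.78 on the log2 scale in HP1a WT, HP1a KO and HP1g KO cells, with adjusted p of 0.0152, 0.00251 and 0.00153 in edgeR's test, and lost its pass in HP1a WT without Tconv replicate 1 or 3 or naive replicate 3 and with all libraries of the line. In HP1g WT cells it was 74.4, 79.8 and 85.7 CPM in naive and 68.9, 58.5 and 47.9 in Tconv libraries and did not pass.

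Fdps, the farnesyl diphosphate synthase that supplies both sterols and prenyl groups, was 91.3, 90 and 70.5 CPM in HP1g KO naive and 43.6, 45.8 and 43 in HP1g KO Tconv libraries. The Tconv libraries lay close together and below all naive libraries, with a log2 fold change of -0.90 and an adjusted p of 0.000403 in edgeR's test. In the HP1g WT cells Fdps fell from 68.9, 147 and 79.7 CPM to 50.7, 36.7 and 38.7, by 1.23 on the log2 scale (SE 0.30, adjusted p = 0.0171), and was called. The 147 CPM stood in naive replicate 2, the library that lay apart from its group, and the pass was lost without Tconv replicate 2 or 3. Mvd, which decarboxylates mevalonate diphosphate, fell by 0.90 and 0.82 in HP1g WT and KO cells (adjusted p 0.0167 and 0.00252, edgeR), the former lost without Tconv replicate 1 or 2, and in HP1a WT libraries it was 20.6 to 21.7 CPM in naive and 19.3 to 24.5 in Tconv cells. Idi1, the isomerase that makes dimethylallyl diphosphate, fell by 0.58 in HP1a KO and by 0.90 in HP1g WT cells (adjusted p 0.0122 and 0.00227, edgeR). The former pass was lost with all libraries of the line in 1 fit.

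Acat2, the cytosolic thiolase that starts the arm, moved the other way in the HP1a line. It rose from 37, 48.3 and 48.6 CPM to 58.1, 55.7 and 64.4 in WT cells and from 36.8, 45.6 and 46.9 to 68.2, 57 and 66.4 in KO cells, with no overlap in either. The log2 fold changes were 0.42 (adjusted p = 0.0233) and 0.58 (0.00703) in edgeR's test, the former lost without Tconv replicate 1 or 3 and with all libraries of the line. Acat2 did not pass in the HP1g line, with WT naive libraries at 46.2, 72.5 and 46.1 CPM and WT Tconv libraries at 37.7, 40 and 48.3. Over the 7 genes of the arm the median log2 fold change was -0.15, -0.34, -0.90 and -0.78 in the 4 comparisons, in the order above.

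Between squalene and cholesterol, Cyp51, the lanosterol demethylase, was 75.9, 81.4 and 87 CPM in HP1a WT naive libraries and 53.3, 69 and 43.6 in HP1a WT Tconv libraries. HP1g KO cells showed 101, 118 and 92.7 CPM when naive and 45.8, 59.7 and 52.8 after the graft. All Tconv libraries lay below all naive ones in both comparisons. Cyp51 fell by 0.55 (adjusted p = 0.0201), 0.61 (0.000401), 0.62 (0.0495) and 0.95 (0.000602) on the log2 scale in HP1a WT, HP1a KO, HP1g WT and HP1g KO cells by edgeR's test. With all libraries of the line in 1 fit Cyp51 lost its pass in HP1a WT and HP1a KO cells. In HP1g WT cells the pass was also lost with RLE size factors, with no filter and with the replicate block. Merged exons of Cyp51 share 21.1% of their bases with Akap9, and the kit does not mark strand, so reads of the shared bases cannot be told apart.

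Tm7sf2, a sterol reductase that acts after Cyp51, was 9.92, 11.8 and 11.3 CPM in HP1a WT naive libraries and 5.13, 6.95 and 5.27 in HP1a WT Tconv libraries. In HP1g WT cells it was 8.72, 7.85 and 7.83 when naive and 4.39, 4.65 and 4.43 after the graft. The 3 HP1g WT Tconv values lay close together and below all naive values, as did those of the HP1a WT cells. Its log2 fold change was -0.93 (adjusted p = 0.00521), -0.77 (0.00548), -0.86 (0.0131) and -0.86 (0.0133) in the 4 comparisons by edgeR's test.

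Ebp, which moves a sterol double bond between positions of the ring, went up. It was 46.6, 43.4 and 52 CPM in HP1a WT naive and 94.3, 99.8 and 107 in HP1a WT Tconv libraries. In HP1a KO cells it was 40.7, 45 and 45.3 when naive and 92.7, 92 and 91.2 after the graft. All Tconv libraries lay above all naive libraries in both genotypes. The log2 fold change was 1.09 (SE 0.10, adjusted p = 4.88e-05) in WT and 1.09 (SE 0.07, adjusted p = 4.3e-05) in KO cells, and Ebp was called in both, also in each fit that left out 1 library. HP1g KO cells showed a rise of Ebp by 0.69 (adjusted p = 0.00589), from 47.9, 49.5 and 40.4 to 59.9, 85.4 and 73.6 CPM. In HP1g WT cells it stood at 44.6, 84.1 and 49.1 when naive and 73.7, 67.4 and 75.7 after the graft, with a log2 fold change of 0.28 (adjusted p = 0.427, edgeR's quasi-likelihood test), and the naive value of 84.1 was again that of replicate 2. Without that library Ebp also passed in HP1g WT cells.

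Lss, the enzyme that closes squalene epoxide into lanosterol, also rose in 3 of the 4 comparisons. It was 27.4, 26.5 and 27.4 CPM in HP1a WT naive and 48.9, 41.4 and 36.3 in HP1a WT Tconv libraries, with no overlap and a log2 fold change of 0.64 (SE 0.13, adjusted p = 0.00385). The rises in HP1a KO and HP1g WT cells were 0.33 (adjusted p = 0.0384) and 0.70 (adjusted p = 0.0178) by edgeR's test. In HP1a KO cells the pass held only without naive replicate 1 among the fits that left out a library, and was lost with no filter, with all libraries of the line and with the replicate block. In HP1g WT it was lost without any one Tconv library, and in HP1a WT with all libraries of the line. In HP1g KO cells Lss was 33.8, 36 and 31.7 CPM when naive and 30.1, 31.3 and 31.8 after the graft, values that overlapped. Squalene epoxidase (Sqle), a rate-limiting step, fell by 0.47 in HP1a KO and by 0.89 in HP1g KO cells (adjusted p 0.0184 and 0.000894, edgeR), the former lost without Tconv replicate 2 or 3 or naive replicate 2 or 3 and with all libraries of the line. Msmo1, the sterol methyl oxidase, fell by 1.02 in HP1g WT (SE 0.26, adjusted p = 0.019, called) and by 0.76 in HP1g KO cells (adjusted p = 0.000912). The former was lost without Tconv replicate 2 or 3. The median log2 fold change over the 11 genes was -0.05, -0.10, -0.22 and -0.31.

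Among the genes that sense or carry sterols, Srebf2 fell in 3 of 4 comparisons. It was 309, 318 and 344 CPM in HP1a WT naive and 224, 252 and 228 in HP1a WT Tconv libraries, which did not overlap. In HP1g KO libraries it was 339, 370 and 330 CPM when naive and 217, 182 and 202 after the graft, again with no overlap. The log2 fold changes were -0.46 (adjusted p = 0.00281) in HP1a WT, -0.44 (0.00307) in HP1a KO and -0.77 (0.000485) in HP1g KO cells by edgeR's test. The passes in HP1a WT and HP1a KO cells were lost with all libraries of the line in 1 fit. In HP1g WT cells Srebf2 was 291, 219 and 310 CPM in naive and 262, 234 and 208 in Tconv libraries. The lowest naive value, 219, was that of replicate 2, and Srebf2 passed there without it.

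Insig1, an SREBP target that retains SCAP in the endoplasmic reticulum, fell by 0.73, 0.93 and 0.62 on the log2 scale in HP1a WT, HP1a KO and HP1g KO cells, with adjusted p of 0.0345, 0.0153 and 0.0478 in edgeR's test. Its libraries were spread out, at 79.8, 52 and 58.5 CPM in HP1a WT naive and 46.5, 41.4 and 26.6 in HP1a WT Tconv cells, although the groups did not overlap. Its pass was lost in HP1a WT cells without Tconv replicate 2 or 3 or naive replicate 1 or 3 and with no filter. In HP1g KO cells it held only without Tconv replicate 1 among such fits, and was lost with no filter, all libraries of the line or the replicate block. Stard4, a cytosolic sterol carrier, rose by 0.41 in HP1a WT cells (adjusted p = 0.0246, edgeR), and lost that pass without Tconv replicate 1 or 2 or naive replicate 2 or 3 and with all libraries of the line. Srebf1, Scap and Insig2 did not pass in any of the 4. The median log2 fold change over the 6 genes was -0.12, -0.03, 0.22 and -0.10.

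The plot of library values for 8 of the genes shows these differences beside those of the Treg groups.

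**Figure D3:**
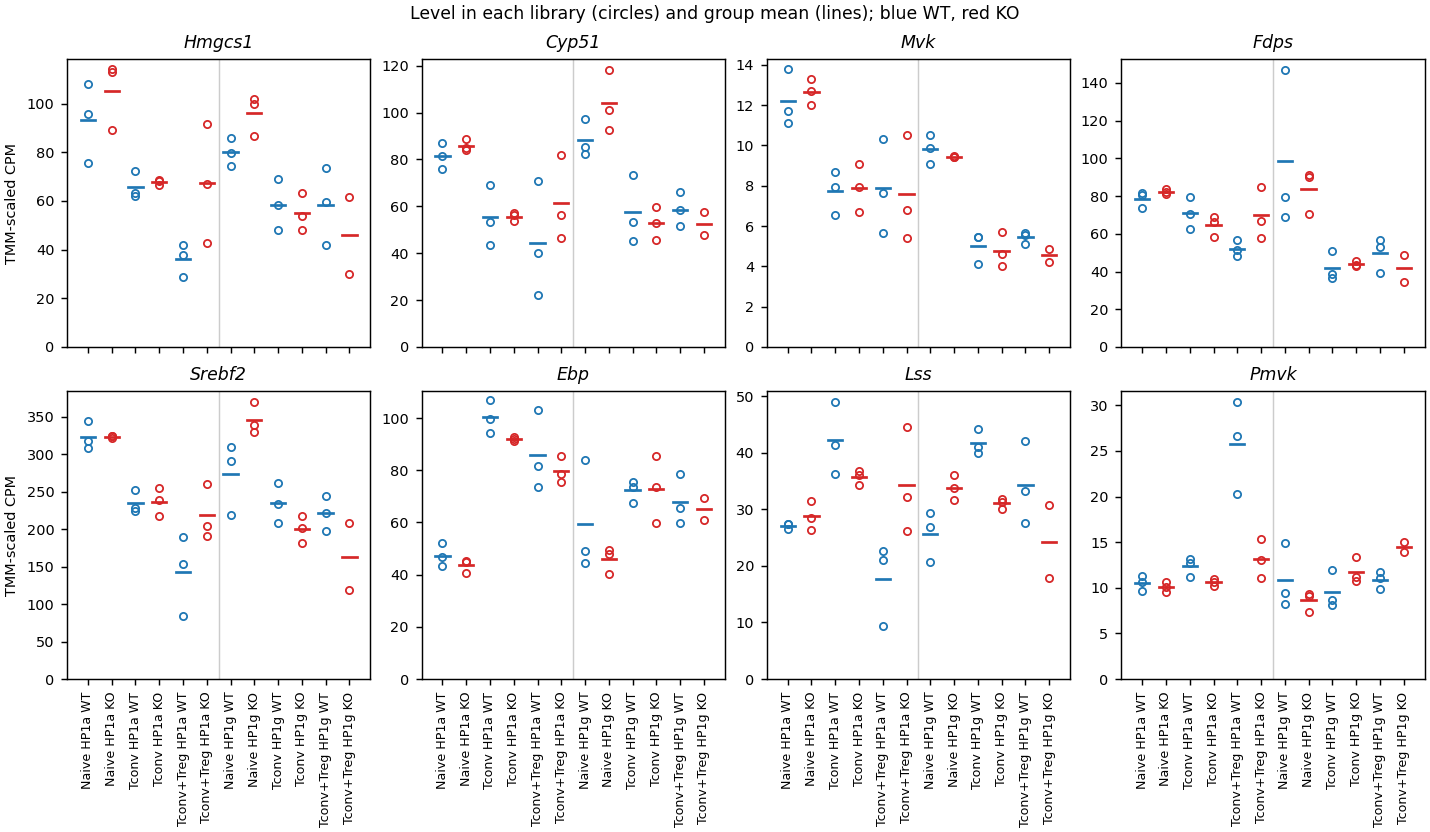
TMM-scaled CPM of Hmgcs1, Cyp51, Mvk, Fdps, Srebf2, Ebp, Lss and Pmvk in each library, by line and condition; circles are libraries, lines are group means, blue is WT and red is KO. Ebp lies between 40.7 and 52 CPM in HP1a naive libraries and between 91.2 and 107 in HP1a Tconv libraries, and Pmvk lies between 20.3 and 30.4 in HP1a WT Tconv with Treg, above the HP1a KO libraries of that condition.

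The median log2 fold change over the fatty acid genes tested was -0.31, -0.19, 0.27 and -0.08, with 7 of 8 fitted lower in HP1a WT and 6 of 7 in HP1a KO cells. Elovl6, which lengthens palmitate, was 17.5, 16.5 and 15.6 CPM in HP1g WT naive and 8.52, 8.11 and 7.85 in HP1g WT Tconv libraries. No value of one group came near the other, and Elovl6 fell by 1.02 on the log2 scale (SE 0.17, adjusted p = 0.00264), past both thresholds. It also fell by 0.71 in HP1a WT and by 0.45 in HP1g KO cells (adjusted p 0.00944 and 0.0339, edgeR). Fasn fell by 0.62 in HP1a WT cells (adjusted p = 0.0211), where naive libraries held 73.4, 100 and 107 CPM and Tconv libraries 63.6, 70.6 and 47.9. Fads1, a front-end desaturase of polyunsaturated fatty acids, fell by 0.42 in HP1a WT and by 0.66 in HP1a KO cells (adjusted p 0.0468 and 0.0167, edgeR). Of the 6 fits that each omitted a library, Fasn lost its pass in 4 (Tconv replicate 1 or 3, naive replicate 2 or 3). Fads1 kept its pass in HP1a WT only without naive replicate 1, and in HP1a KO lost it without Tconv replicate 1 or 3 or naive replicate 2 or 3. Elovl6 kept its pass in HP1g KO only without Tconv replicate 1. The passes of Fads1 in HP1a WT and Elovl6 in HP1g KO were also lost with no filter, all libraries of the line or the replicate block, and that of Fasn with all libraries of the line.

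Fads2, the desaturase that precedes Fads1, and Scd1 were called at very low counts. Fads2 had 8, 26 and 11 counts in HP1a WT Tconv libraries and 0 in all 3 naive libraries, so it was at least 6.89-fold higher, taking 3 counts in each naive library as the floor. In HP1g KO cells 33, 29 and 36 counts stood against 1, 1 and 1, a ratio of 32.3 with an exact Poisson interval from 10.7 to 159, which covers counting error only, and an adjusted p of 0.000194 in edgeR's test. Scd1 had 19, 21 and 29 counts in HP1a WT naive and 0, 5 and 0 in Tconv libraries, a ratio of 0.106 (0.0332 to 0.258, adjusted p = 0.02). Scd1 no longer passed once Tconv replicate 1 or 3, or naive replicate 2 or 3, was removed, nor with all libraries of the line in 1 fit. With Fads2 at its bound the medians of the list did not move at the printed precision.

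By both thresholds together, HP1a WT cells had 2 members called higher (Ebp and Fads2; 6.25% of members against 12.9% of all genes) and 1 lower (Scd1; 3.12% against 10.2%). HP1a KO cells had 1 higher (Ebp; 3.23% against 12.4%) and 0 lower, where 7.24% of all genes were called. HP1g WT cells had 0 higher, where 15% of all genes were called, and 3 lower (Elovl6, Fdps and Msmo1; 10% against 8.55%). HP1g KO cells had 1 higher (Fads2; 3.12% against 15.7%) and 0 lower, where 7.3% of all genes were called. Changes of the members were thus mostly under the fold threshold. Without naive replicate 2 of HP1g WT only Elovl6 stayed called there, and without Tconv replicate 3 no member was.

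Cells of the naive and grafted groups differed widely in other markers. The 4 markers of naive T cells were called lower in all 4 comparisons, with sums of 5370 to 6890 CPM in naive and 747 to 1320 in Tconv libraries. Sums of 8 genes of dividing cells were 239 to 384 CPM in naive and 477 to 1660 in Tconv libraries. Erythroid sums were at most 2.83 CPM in HP1a WT Tconv libraries and 58.9 to 3730 in HP1g WT Tconv libraries, and myeloid sums were 6.69 to 7.67 and 28.9 to 662, with Ltf and Chil3 at 0 in the former. Their part in the differences of the 32 genes was not tested. In these bulk libraries fewer cells of a type and less RNA per cell cannot be told apart.

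The 12 members that did not pass between Tconv and naive cells are given by their range over the 35 libraries. Fdft1, which makes squalene, ran from 28.6 to 65.1 CPM with a median of 41.9, and Dhcr7, which reduces the last double bond of one branch to cholesterol, from 32.1 to 62.9 with a median of 41.1. Nsdhl, a sterol dehydrogenase, ran from 19.4 to 35.6 CPM and Hsd17b7, a sterol ketoreductase, from 6.41 to 20.8. Pmvk had its lowest library, at 7.39 CPM, among HP1g KO naive cells and its highest, at 30.4, among HP1a WT Tconv with Treg. Acly ran from 152 to 463 CPM, Scap from 38.5 to 88.6 and Srebf1 from 46.4 to 107. Sc5d, a sterol desaturase, ran from 40.2 to 108 CPM, Insig2 from 14.7 to 32.8 and Acaca from 6.1 to 16.6. Scd2 had the widest scatter within groups of these 12, with a median coefficient of variation of 30.9%, and ran from 24.1 to 112 CPM. In HP1g KO Tconv cells, for instance, its 3 libraries held 37.1, 112 and 99.9 CPM.

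Some members share exon bases with a neighbouring gene, and reads from a kit that does not mark strand cannot be told apart there. Fdft1 shares 24.8% of its merged exon bases with Ctsb, Mvd 20.5% with Gm51557, Hmgcs1 10.6% with Gm48342 and Acat2 5.48% with Tcp1, all on the opposite strand. Tm7sf2 shares 10.8% with Vps51 on its own strand. Ebp, Mvk and Pmvk share none with another gene of the annotation.

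Other genes of sterol and fatty acid handling, from lists taken by role, were read beside the members. Soat2, which esterifies cholesterol for storage, was called higher in all 4. It stood at 16 ± 0.566, 13 ± 1.7, 21.8 ± 3.4 and 21.5 ± 4.17 CPM in the 4 Tconv groups (SD, n = 3) against 0 or near 0 in naive cells, at least 309-fold higher in HP1a WT.

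Of 12 genes of sterol export, storage and uptake, 11, 11, 11 and 12 were tested, of which 1, 2, 1 and 1 rose and 6, 6, 3 and 5 fell. For these lists the shares of all genes that passed were 24.3%, 22.9%, 18.3% and 23.4% higher and 21.4%, 17.8%, 13.2% and 17.7% lower. Abca1, the exporter of cholesterol to lipoprotein, was called lower in HP1a WT, HP1a KO and HP1g KO cells, at 2.66 ± 0.581, 3.19 ± 0.535 and 4.09 ± 0.438 CPM in Tconv against 23.3 ± 10.4, 16.4 ± 3.15 and 11.1 ± 2.01 in naive cells (SD, n = 3). Of 13 genes of fatty acid supply, elongation and activation, 11, 12, 11 and 12 were tested, of which 3, 3, 2 and 5 rose and 1, 1, 1 and 3 fell. Fabp5, a fatty acid binding protein, was called higher and Acsl3, an acyl-CoA synthetase, lower in all 4. Of 10 genes of fatty acid oxidation, 9 were tested in each comparison, of which 4, 3, 2 and 3 rose and Acadm fell in each.

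Comparing KO with WT cells in the same condition asks whether loss of either HP1 protein alters the genes. No member passed in any of the 6 comparisons with edgeR's quasi-likelihood test. Of the targeted genes, that test passed only Cbx5 in HP1a Tconv cells. Cbx5 differed by -1.03 on the log2 scale in HP1a naive cells (adjusted p = 0.99) and Cbx3 by -0.95 in HP1g naive cells (0.63). A lack of a pass therefore does not show that a gene kept its level. In HP1a naive, Tconv and Tconv with Treg cells 0%, 0.122% and 0.123% of all genes passed in either direction, and 0.00669%, 0.0437% and 0% did in the same HP1g conditions in that test. At an unadjusted p under 0.05 there were 0, 2, 9, 3, 2 and 3 members (0%, 6.25%, 28.1%, 9.68%, 6.45% and 9.68% of those tested), against 1.87%, 8.53%, 12.1%, 5.78%, 8.42% and 11.8% of all genes. DESeq2 called 0 members in each by both thresholds, whereas it called 0.0995%, 1.05%, 3.69%, 0.214%, 1.36% and 3.24% of all genes it tested. By adjusted p alone DESeq2 passed 2 members in each of the comparisons with Treg, Mvd higher and Pmvk lower in the HP1a line, and Scd2 higher and Insig1 lower in the HP1g line.

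**Figure D4:**
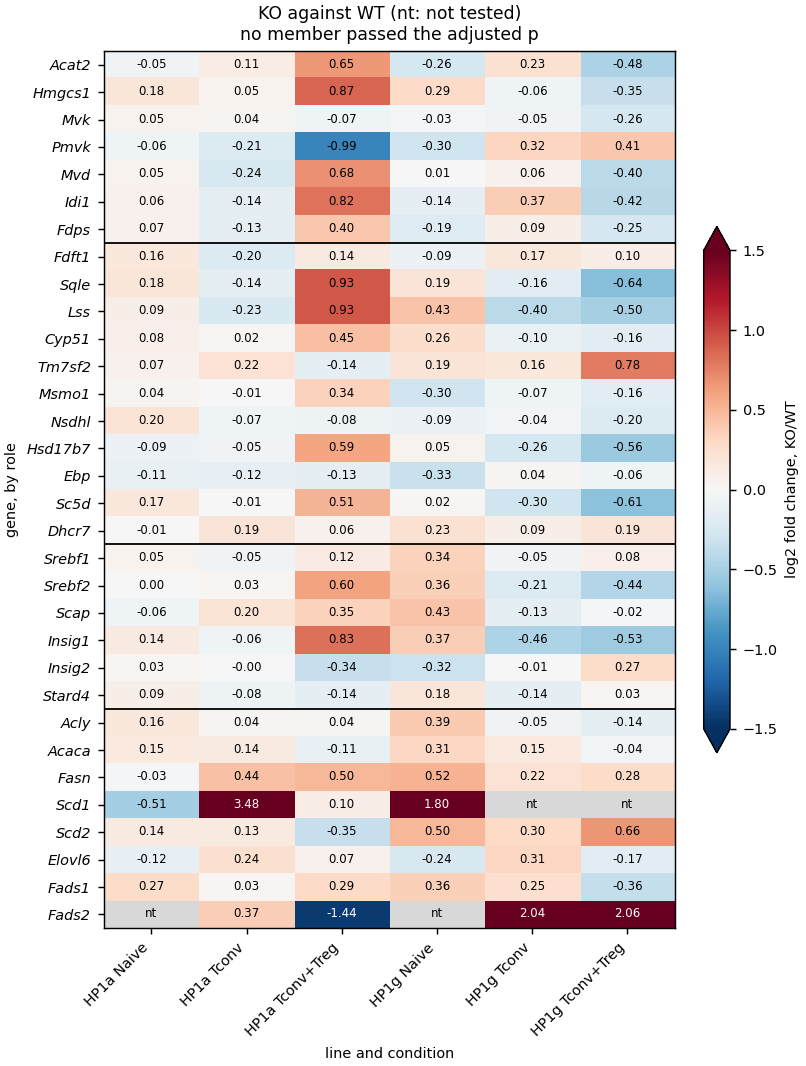
Log2 fold change of KO against WT cells for each of the 32 genes in the 6 line and condition comparisons, as colours from blue (lower in KO) to red (higher in KO), with nt where a gene was not tested. In the HP1a column with Treg, Hmgcs1 lies at 0.87, Lss at 0.93 and Pmvk at -0.99. No gene passed in any column, and Scd1 and Fads2 have few counts.

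In naive and Tconv cells of the HP1a line the median log2 difference of the members was 0.06 and 0.01. In Tconv cells all 8 fatty acid genes were fitted higher in KO, with a median of 0.19 against 0.00 for all genes. None of them passed, and Scd1 and Fads2 among them had few counts. Of the 18 cholesterol enzymes there, 6 were fitted higher and 12 lower. The smallest p-values in naive cells belonged to Nsdhl, Fdft1 and Fads1, with log2 differences of 0.20, 0.16 and 0.27, and adjusted p of 1. In Tconv cells they belonged to Scd1 (3.48, at the low counts given above), Fasn (0.44) and Lss (-0.23), with adjusted p of 0.549, 0.554 and 0.607. Lss was 34.3, 36.1 and 36.7 CPM in KO and 48.9, 41.4 and 36.3 in WT Tconv libraries, groups that overlapped. All 3 KO Tconv libraries lay inside the WT range for Hmgcs1, at 66.6, 68.4 and 68.2 CPM, and for Cyp51, at 53.6, 57.1 and 56.2.

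With Treg, HP1a KO cells had higher fitted values than WT cells for 13 of 18 cholesterol enzymes, with a median log2 difference of 0.43 against -0.01 for all genes. Mvd was 19.4, 21.7 and 21.2 CPM in KO and 12.1, 14.6 and 11.4 in WT libraries. Those groups did not overlap, and the log2 difference was 0.68 with an adjusted p of 0.226 in edgeR's test. Hmgcs1 was 42.8, 91.8 and 67 CPM in KO and 37.7, 41.9 and 28.6 in WT libraries, also without overlap but with a wide spread among the KO libraries (0.87, adjusted p = 0.292, edgeR). Acat2, at 57.4, 47.6 and 51.2 CPM against 35.4, 39.1 and 23.7, differed by 0.65 (adjusted p = 0.295, edgeR). Pmvk, the phosphomevalonate kinase, went the other way, with 11.1, 15.3 and 13 CPM in KO and 20.3, 30.4 and 26.6 in WT libraries (-0.99, adjusted p = 0.139, edgeR).

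KO and WT libraries with Treg did not overlap for 9 members with KO higher, 28.1% of members against 11.8% of all genes, and for 1 with KO lower, 3.12% against 9.71%. When all HP1a libraries entered a single fit, Acat2, Hmgcs1, Mvd, Sqle and Lss passed as higher and Pmvk as lower. In the same groups the myeloid sum was 299 to 693 CPM in KO and 23.5 to 69 in WT libraries, the erythroid sum 85.1 to 523 and 2.29 to 36.1, and the Treg marker sum 166 to 344 and 494 to 730. Of the 10 myeloid markers 2 were called higher in KO. Their part in the differences was not tested.

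In the HP1g line, naive KO and WT libraries did not overlap for 10 of 31 members with KO higher (32.3%, against 8.89% of all genes) and for 1, Elovl6, with KO lower (3.23%, against 7.93%). The smallest p-values belonged to Scd1, Insig1 and Lss, with log2 differences of 1.80, 0.37 and 0.43 and an adjusted p of 0.63 each in edgeR's test. Insig1 was 71, 91.6 and 86.8 CPM in KO and 64.2, 63.7 and 68.7 in WT libraries, and Lss 33.8, 36 and 31.7 against 26.9, 20.6 and 29.4. The groups did not overlap in either, although WT naive replicate 2, at 20.6 CPM, lay lowest for Lss.

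In HP1g Tconv cells Lss was 30.1, 31.3 and 31.8 CPM in KO and 41, 44.1 and 40 in WT libraries. Each group was tight and the groups lay well apart, but for the log2 difference of -0.40 edgeR's test gave an adjusted p of 0.268. Fads2 (2.04) and Sc5d (-0.30) came next, with adjusted p of 0.324 and 0.596. With Treg, where 2 KO libraries stood against 3, Scd2 was 81.4 and 86.1 CPM in KO and 46.9, 57.2 and 55.3 in WT libraries (0.66, adjusted p = 0.194, edgeR), without overlap. Insig1 (-0.53) and Tm7sf2 (0.78) had adjusted p of 0.232 and 0.392. The median over cholesterol enzymes was -0.26 there, and the KO libraries differed much from each other, with Hmgcs1 at 30 and 61.7 CPM and Srebf2 at 119 and 208. Acat2 was 23.6 and 44.5 CPM in KO replicates 1 and 2 with Treg and 45 to 49.6 in WT libraries. Replicate 1 also had an erythroid sum of 4930 CPM against 84.4 in replicate 2. Its Treg marker sum was 868 against 406 and its myeloid sum 410 against 102. A fit without KO replicate 2 leaves this lone KO library, assumed to vary like the others, so no pass is drawn from it.

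Adding Treg to the transfer asks whether their presence alters the genes in Tconv. The HP1a WT libraries with Treg also enter the KO and WT comparison above, so both rest on the same 3 libraries. In HP1a WT cells Pmvk was called higher and Hmgcs1 fell, both among 31 members tested. Pmvk was 20.3, 30.4 and 26.6 CPM with Treg and 11.2, 12.7 and 13.2 without. All values with Treg exceeded all values without, with a log2 fold change of 1.10 (SE 0.21, adjusted p = 0.02). The 1 called member was 3.23% of those tested, against 3.54% of all genes called higher, and 0 were called lower, against 2.43%. Hmgcs1 was 37.7, 41.9 and 28.6 CPM with Treg and 63.4, 72.2 and 62.1 without, a fall by 0.83 on the log2 scale (SE 0.18, adjusted p = 0.0311, edgeR). By adjusted p alone 1 member rose and 1 fell (3.23% each), against 4.08% and 3.46% of all genes. These counts depended on the fit. DESeq2 passed 3 higher and 7 lower of 32 members (7.45% and 5.9% of all genes), and a fit of all HP1a libraries 3 and 9 of 32 (8.75% and 8.3%). Without a filter on low counts 1 and 5 of 32 passed (2.45% and 2.1%), and with a replicate block 1 and 4 of 31 (2.99% and 2.66%).

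**Figure D5:**
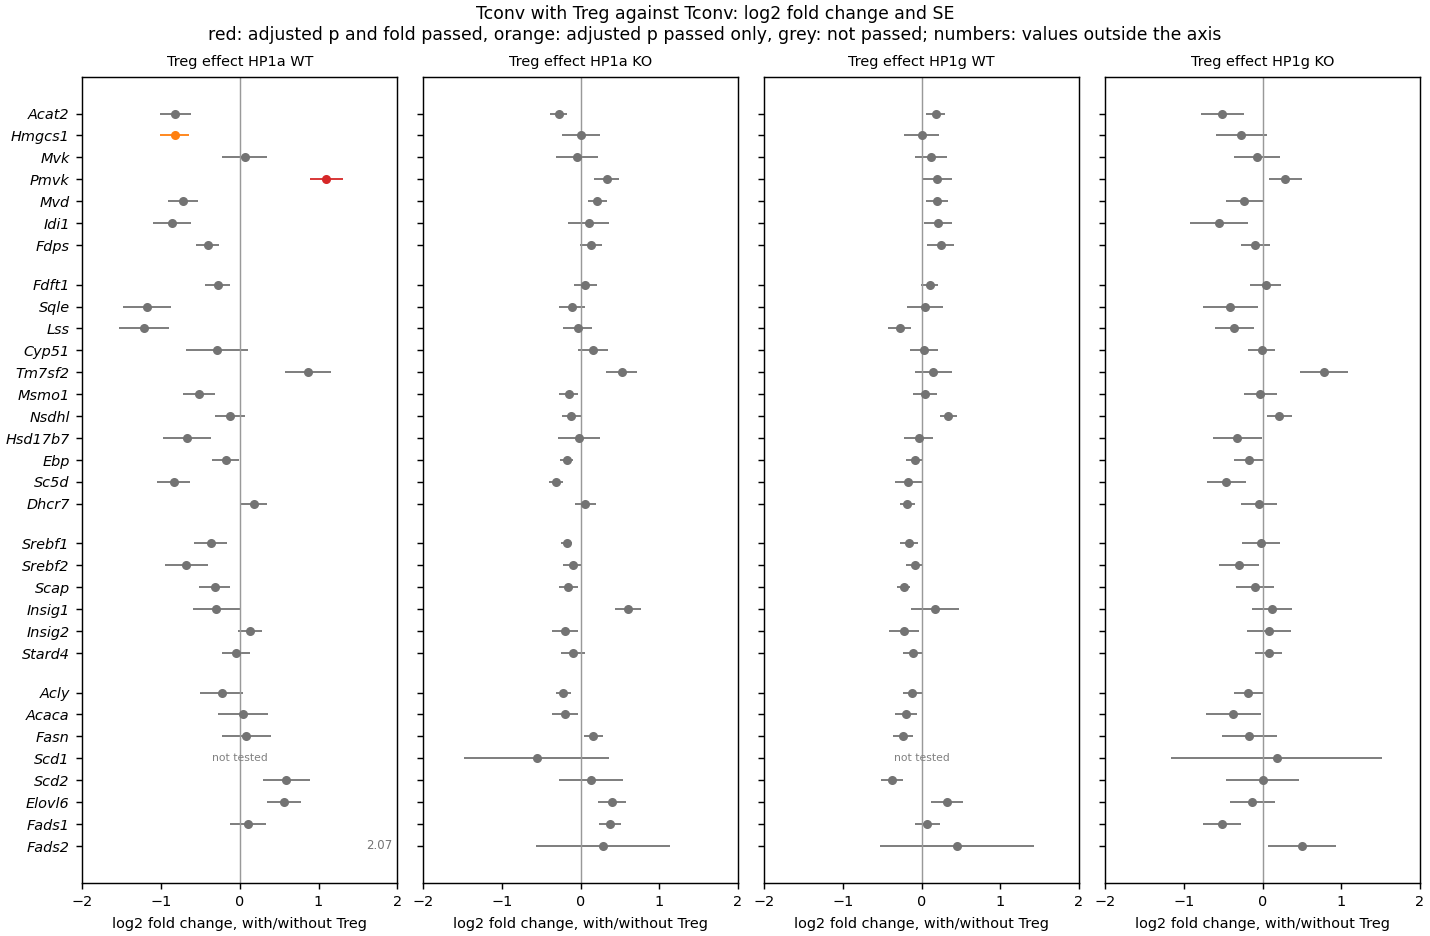
Log2 fold change of Tconv with Treg against Tconv without for each of the 32 genes in the 4 line and genotype comparisons; bars are standard errors, red was called, orange passed the adjusted p alone and grey did not pass. In HP1a WT cells Pmvk lies at 1.10 and Hmgcs1 at -0.83, and no gene passed in the other 3 comparisons.

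Most other cholesterol enzymes of HP1a WT cells had lower fitted values with Treg, 14 of 18, with a median of -0.46 against 0.03 for all genes. Sqle was 29.9, 37.4 and 15.3 CPM with Treg and 58.8, 73 and 59.8 without, at a log2 difference of -1.18 (adjusted p = 0.0637, edgeR). Lss was 21, 22.7 and 9.44 CPM against 48.9, 41.4 and 36.3, at -1.22 (adjusted p = 0.0682, edgeR). Neither pair overlapped, and replicate 3 with Treg was the lowest library in both. Sc5d (-0.84), Acat2 (-0.82), Mvd (-0.72) and Idi1 (-0.86) had adjusted p of 0.0522, 0.0541, 0.0689 and 0.0817 in edgeR's test. Groups did not overlap for 12 of 31 members with Treg lower (38.7%, against 20.1% of all genes) and for 4 with Treg higher (12.9%, against 14.7%).

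These values rest on few libraries. Removing single libraries ended the call of Pmvk in 4 of 6 fits and the pass of Hmgcs1 in 4 of 6. Without any one of the 3 Tconv libraries no member passed. Without replicate 1 with Treg only Pmvk passed, and without replicate 2 Hmgcs1, Idi1, Sqle, Msmo1 and Sc5d fell. Without replicate 3, Pmvk, Tm7sf2 and Fads2 rose and 8 members fell. That replicate was the lowest of its group for 11 of the 18 enzymes, and the summed level of the enzymes was 513 to 697 CPM in the 3 libraries against a mean of 837 ± 54.1 CPM without Treg (SD, n = 3). Treg markers summed to 494 to 730 CPM with Treg and to 113 to 147 without, and 2 of 4 Treg markers were called higher. The sort gated out Thy1.1+ cells, and the paper reports that Treg turned some Tconv of this model into anergic or regulatory cells. Whether the marker sum moves with the 32 genes was not tested.

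No member passed in the other Treg comparisons with edgeR. In HP1a KO cells, where 0.756% of all genes passed in either direction, 7 of 32 members (21.9%, against 15.8% of all genes) had an unadjusted p under 0.05, and Insig1 (0.60), Sc5d (-0.31) and Srebf1 (-0.18) had the smallest, with adjusted p of 0.138, 0.157 and 0.238. Insig1 was 46.8, 64.8 and 52.1 CPM with Treg and 42.1, 30.8 and 36.1 without, which did not overlap. In HP1g WT cells 0.0126% of all genes passed, 3 of 31 members (9.68%, against 6.89%) had an unadjusted p under 0.05, and Nsdhl (0.34), Scap (-0.23) and Scd2 (-0.38) came first with an adjusted p of 0.694 each. In HP1g KO cells 0% of all genes passed and 1 of 32 members (3.12%, against 7.62%) had an unadjusted p under 0.05. Tm7sf2 (0.78), Fads1 (-0.52) and Acat2 (-0.51) came first there, with adjusted p of 0.646, 0.698 and 0.727. DESeq2 called 0 members by both thresholds in each of these 3, where it called 2.68%, 0.294% and 1.53% of all genes, and by adjusted p alone it passed Insig1 in HP1a KO cells.

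Outside the members, Acss2, which makes acetyl-CoA from acetate, was called lower with Treg in HP1a WT cells, at 21 CPM against 106 (log2 fold change -2.30, adjusted p = 0.00363). In HP1a KO cells it fell by 0.83, from 115 to 63.6 CPM (adjusted p = 0.035, edgeR). Soat2 was called lower and Apoe, a carrier of cholesterol in lipoproteins, higher in HP1a WT cells, with log2 fold changes of -2.58 and 2.65 (adjusted p 0.0261 and 0.0136, edgeR). The summed myeloid markers were 23.5 to 69 CPM in the HP1a WT libraries with Treg and 6.69 to 7.67 without, with 2 of 10 called higher and 5 tested. Erythroid sums were 2.29 to 36.1 CPM and at most 2.83. Their part in these differences, and in those of the members, was not tested.

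Whether these responses differ between genotypes or lines was tested as interaction terms, which share the libraries of the comparisons above. No member passed in any of the 5 with edgeR, where 0.00587% and 0.0235% of all genes passed for genotype by activation in the HP1a and HP1g line, 0.145% and 0% for genotype by Treg, and 1.76% for the WT Treg effect of the HP1a line less that of the HP1g line. At an unadjusted p under 0.05 there were 2, 3, 10, 2 and 12 members (6.25%, 9.38%, 31.2%, 6.25% and 38.7% of those tested), against 4.89%, 7.89%, 9.74%, 3.74% and 15.7% of all genes. DESeq2 called 0, 0, 0, 0 and 1, the last being Idi1 (3.12% of members), against 0.39%, 0.654%, 1.84%, 0.0645% and 4.54% of all genes. By adjusted p alone it passed Lss for genotype by activation in the HP1g line, Mvd for genotype by Treg in the HP1a line, and Pmvk, Acat2, Mvd and Idi1 for the difference between lines.

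For activation, the smallest p-values in the HP1a line belonged to Scd1 (4, adjusted p = 0.719), Fdft1 (-0.37, 0.966) and Fads2 (-3.51, 1). In the HP1g line they belonged to Lss (-0.78, 0.343), which had risen in WT and not passed in KO cells, Elovl6 (0.59, 0.498) and Srebf2 (-0.52, 0.606). For Treg, the effect in HP1a KO less that in WT cells was 0.94 in Mvd (SE 0.21, adjusted p = 0.115), -0.77 in Pmvk (0.28) and 1.17 in Lss (0.321), all by edgeR's quasi-likelihood test. The median over cholesterol enzymes was 0.49 against -0.02 for all genes. For HP1g cells Acat2 (-0.71), Fads1 (-0.61) and Mvd (-0.46) came first, with adjusted p of 1. The fit without KO replicate 2 with Treg again leaves a lone library in that group, so no pass is drawn from it.

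Between lines, the fitted difference of the Treg effects in WT cells was -1.01 in Acat2, -0.94 in Mvd and -1.09 in Idi1. None passed, with adjusted p of 0.0556, 0.0635 and 0.108 in edgeR's test. For the HP1g experiment the paper states that Treg, at the ratio used, did not repress the WT response effectively. Line, experiment and degree of suppression therefore cannot be told apart here. The cholesterol enzymes had a median of -0.60 against 0.02 for all genes. Acat2 was 45, 47.9 and 49.6 CPM in HP1g WT libraries with Treg and 37.7, 40 and 48.3 without, so it lay slightly higher with Treg there, whereas in the HP1a line all libraries with Treg lay below those without. Without replicate 2 of HP1a WT with Treg, Acat2, Mvd and Idi1 passed, and without replicate 3 Acat2 did.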

How the data were processed

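The authors trimmed SMART-Seq v4 reads (a kit that does not mark strand), aligned them with STAR to GRCm39 and deposited Salmon's estimated counts per gene for 36 libraries, as an unnormalized table of 56748 genes, of which 37574 had counts. The expected counts were rounded to whole numbers, 82.9% being whole as deposited. The library the study set aside was left out, so 35 were used. Counts were tested with edgeR 4.0.16 in R 4.3.3 (TMM, filterByExpr, robust quasi-likelihood fit), with only the libraries of the groups compared, and p-values were adjusted by Benjamini-Hochberg over all genes tested. Called genes had an adjusted p under 0.05 and a log2 fold change over 1 in size, as in the study. The same script was tested on simulated data with known changes. Alternatives were DESeq2 1.42.0, RLE factors, no filter, all libraries of a line in 1 fit, a replicate block, the set-aside library and leaving out each library.

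The 32 genes, the gene lists and the tests were chosen with earlier results of these data known. All called members were named, and the 3 with the smallest p where fewer than 3 were called. With 3 pairs, replicate numbers were taken as pairs where every same-numbered correlation of deviations from the group means was over 0.1, which held for KO against WT in HP1a naive cells (0.537 to 0.85) and for the Treg effect in HP1g WT cells (0.165 to 0.479). The pairing came from that check, since the labels give only the numbers. The main tests did not use these pairs, which entered only through the replicate block fitted as an alternative. With that block no member passed in either comparison. In HP1a naive cells 0.135% of all genes then passed as higher in KO and 0.0386% as lower. No replicate pair held identical values. Intervals on counts are exact Poisson intervals at 95% and cover counting error only. A few genes outside the 32 are not reported here.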

Additional observations from a re-analysis of the deposited data

How the results depend on the processing

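By adjusted p alone instead of both thresholds, members called rose to 15, 13, 9 and 13 for Tconv against naive cells in HP1a WT, HP1a KO, HP1g WT and HP1g KO, and to 2 for Treg in HP1a WT cells. DESeq2 called 2 members for HP1a KO activation, 4 for the HP1a WT Treg effect and 1 for the difference of the WT Treg effects between lines. Without a filter on low counts these were 2, 3 and 1, and with all libraries of the line in 1 fit 2, 3 and 1. With the replicate block HP1g KO activation gave 2 and the HP1a WT Treg effect 3, and the block changed no call in the paired comparisons. Leaving out 1 library gave 2 to 4 (HP1a WT), 1 to 3 (HP1a KO), 0 to 4 (HP1g WT) and 1 to 4 (HP1g KO) members for activation. It gave 0 to 3 for the HP1a WT Treg effect and 0 to 3 for the difference between lines. Fits that left a lone HP1g KO library with Treg are not counted here. Over the same fits 3 to 12 members fell by adjusted p alone in HP1a WT activation, 7 to 12 in HP1a KO, 4 to 8 in HP1g WT and 9 to 11 in HP1g KO. The cause was not tested. No fold change of a passing member reversed under any alternative. With 2 or 3 libraries a group, small differences were not detectable. Larger ones could also fail to pass, as did the log2 difference of -1.03 of Cbx5 between HP1a KO and WT naive cells. Scd1 and Fads2 rest on few counts.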
